A study of Mus musculus with 686 samples.

Results

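The tRNAs for valine, lysine, histidine and aspartate were followed across 13 mouse tissues. They were chosen by name, as every row of the tRNA count table whose isotype is Val, Lys, His or Asp, with earlier results of these data known. These are 79 of the 408 rows, 7 of the 51 anticodons and 4 of the 23 isotypes listed. The anticodons are Val-AAC, Val-CAC, Val-TAC, Lys-CTT, Lys-TTT, His-GTG and Asp-GTC. No mitochondrial tRNA is among them.

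The 686 small RNA libraries came from female BALB/cAnNTac mice of 3 or 8 months in 3 arms. Flight mice (FL) were set beside a habitat ground control (HGC) and a control kept in the vivarium (VGC). HGC mice lived in flight hardware at the temperature, humidity and CO2 of the station, VGC mice in standard cages, and all mice ate NASA food bars. Live animal return (LAR) gave 348 libraries from 40 mice, of which 12 were FL, 12 HGC and 16 VGC. Its flight mice spent 39.5 days on the ISS and were collected 2 to 4 days after splashdown. Their tissues were frozen at dissection, in liquid nitrogen by the study's methods, while its list of factors gives slow freezing for LAR. ISS termination (TERM) gave 338 libraries from 43 other mice, of which 14 were FL, 15 HGC and 14 VGC. Its mice were killed 22 to 24 days after launch, and their carcasses were frozen whole and thawed for dissection, with the exception of the spleen, which went fresh into RNAlater. A group of 1 tissue and 1 arm held 4 to 10 libraries in LAR and 2 to 10 in TERM. Brain of LAR and pancreas of TERM came from mice of 3 months alone. Brown, gonadal, mesenteric and subcutaneous adipose tissue are abbreviated BAT, GAT, MAT and SCAT.

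A tRNA brings 1 amino acid to the ribosome and reads the codon that pairs with its anticodon. Nucleases such as angiogenin can cut it, most often in the anticodon loop, and the fragments are a large part of many small RNA libraries, where pieces of glycine, glutamate and valine tRNAs are among the most frequent. The 4 isotypes differ in their known chemistry. Asp-GTC and Val-AAC are methylated by Dnmt2, which protects them from cleavage under stress. Asp and His tRNAs can carry queuosine, a base made from a diet- and microbe-derived precursor, in their anticodon. His-GTG has an additional guanosine at its 5′ end, by which its synthetase recognises it, and Lys-TTT carries a thiolated uridine in its anticodon.

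The table counts whole reads per gene copy and does not say which stretch of the tRNA a read covered, so fragment types cannot be told apart. Many copies have the same value in every library. The 79 rows hold 37 distinct profiles, and 11 sets of identical rows are among them, of which the largest holds 13 Asp-GTC rows. Another 8 identical rows belong to His-GTG, 7 to Lys-CTT, 6 to Lys-TTT and 5 to Val-CAC, and all 3 rows of Val-TAC are the same. Reads shared by copies thus appear to count more than 1 time, so that a share of the tRNA counts would depend on how many copies are listed. For this reason levels were compared within 1 anticodon across samples, and no order of abundance was drawn between anticodons. Of the rows, 64 had counts in every library.

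A level is given as the percent of all tRNA counts of a library or as CPM, counts scaled to a library total of 1000000 over the 7 RNA classes deposited (tRNA, miRNA, piRNA, lncRNA, rRNA, snoRNA and snRNA). Tests were run on anticodon sums by edgeR's quasi-likelihood test, with p-values adjusted by Benjamini-Hochberg over all anticodons of a tissue and called under 0.05. They were run on the CPM scale and relative to the other tRNAs, where TMM factors set the typical anticodon to no change. Changes are log2 ± SE. In bulk tissue, fewer cells of a type and less RNA per cell cannot be told apart.

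Libraries held 9.15 to 428 M counts (M for mega, median 54.5 M), of which tRNA took 2.20% to 89.5% (median 31.5%), or 1.17 to 242 M counts. Each of the 7 anticodons had at least 5364 counts in every library, and at least 1165 with identical rows merged, so counting error was small beside the spread between mice. All 12 lists of tissue and blood miRNA markers were found, and the median of each tissue's own markers stood above that of the other tissues, with at most 6 libraries of a set below it. By their whole miRNA profile, however, 166 of 686 libraries were closest to another tissue than their label. In 11 of the 44 sequencing pools this held for more than 1 library in 3, and calls of the flight and age comparisons are given with and without these 168 libraries. Without them 51 of the 54 tissue calls in LAR, 43 of the 50 in TERM, and 47 of the 51 CPM calls between TERM and LAR were still called.

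The 7 anticodons together took 9.36% to 42.7% of the tRNA counts of a library, with a median of 25.1%. Pooled over libraries, valine held 20.3% of tRNA counts, aspartate 2.79%, lysine 1.09% and histidine 0.362%. With identical rows merged into 1, the pooled shares were 29.3%, 2.18%, 1.32% and 0.269%, so that the share of valine moved most. By anticodon, merging moved the pooled share of Val-AAC from 4.28% to 11.8%, that of Val-TAC from 0.240% to 0.414% and that of Lys-CTT from 0.481% to 0.778%, and the shares that follow are of the rows as listed. Row tRNA-Lys-TTT-1-1 held 97.3% of the Lys-TTT counts with each set of identical rows counted 1 time (99.1% with its copies added), tRNA-Val-CAC-2-1 94.1% of Val-CAC (98.8%), tRNA-His-GTG-2-1 85.0% of His-GTG (97.8%) and tRNA-Val-AAC-1-1 84.5% of Val-AAC (89.9%). The part held by the top row depended most on the copies in Lys-CTT and Asp-GTC. Row tRNA-Lys-CTT-2-1 held 74.2% of Lys-CTT counted 1 time and 46.5% with its copy, and tRNA-Asp-GTC-1-1 held 46.7% of Asp-GTC counted 1 time and 91.9% over its set of 13 identical rows.

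The first question was in which tissues each tRNA was high. Between tissues of LAR the median shares of Val-CAC and Val-AAC differed by 1.59 and 1.72 times. The median share of Val-CAC went from 11.1% in brain to 17.7% in spleen, and that of Val-AAC from 3.15% in brain to 5.41% in BAT. The shares of the other members spanned wider ranges. Val-TAC went from 0.103% in SCAT to 0.781% in pancreas, Lys-CTT from 0.407% in GAT to 1.92% in liver, and Lys-TTT from 0.249% in SCAT to 1.59% in spleen. His-GTG lay between 0.238% in SCAT and 1.01% in kidney, and Asp-GTC between 1.56% in SCAT and 6.65% in brain. GAT, SCAT and BAT thus had the lowest medians of Val-TAC, Lys-CTT, Lys-TTT and His-GTG, with Asp-GTC low in them and in MAT.

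**Figure D1:**
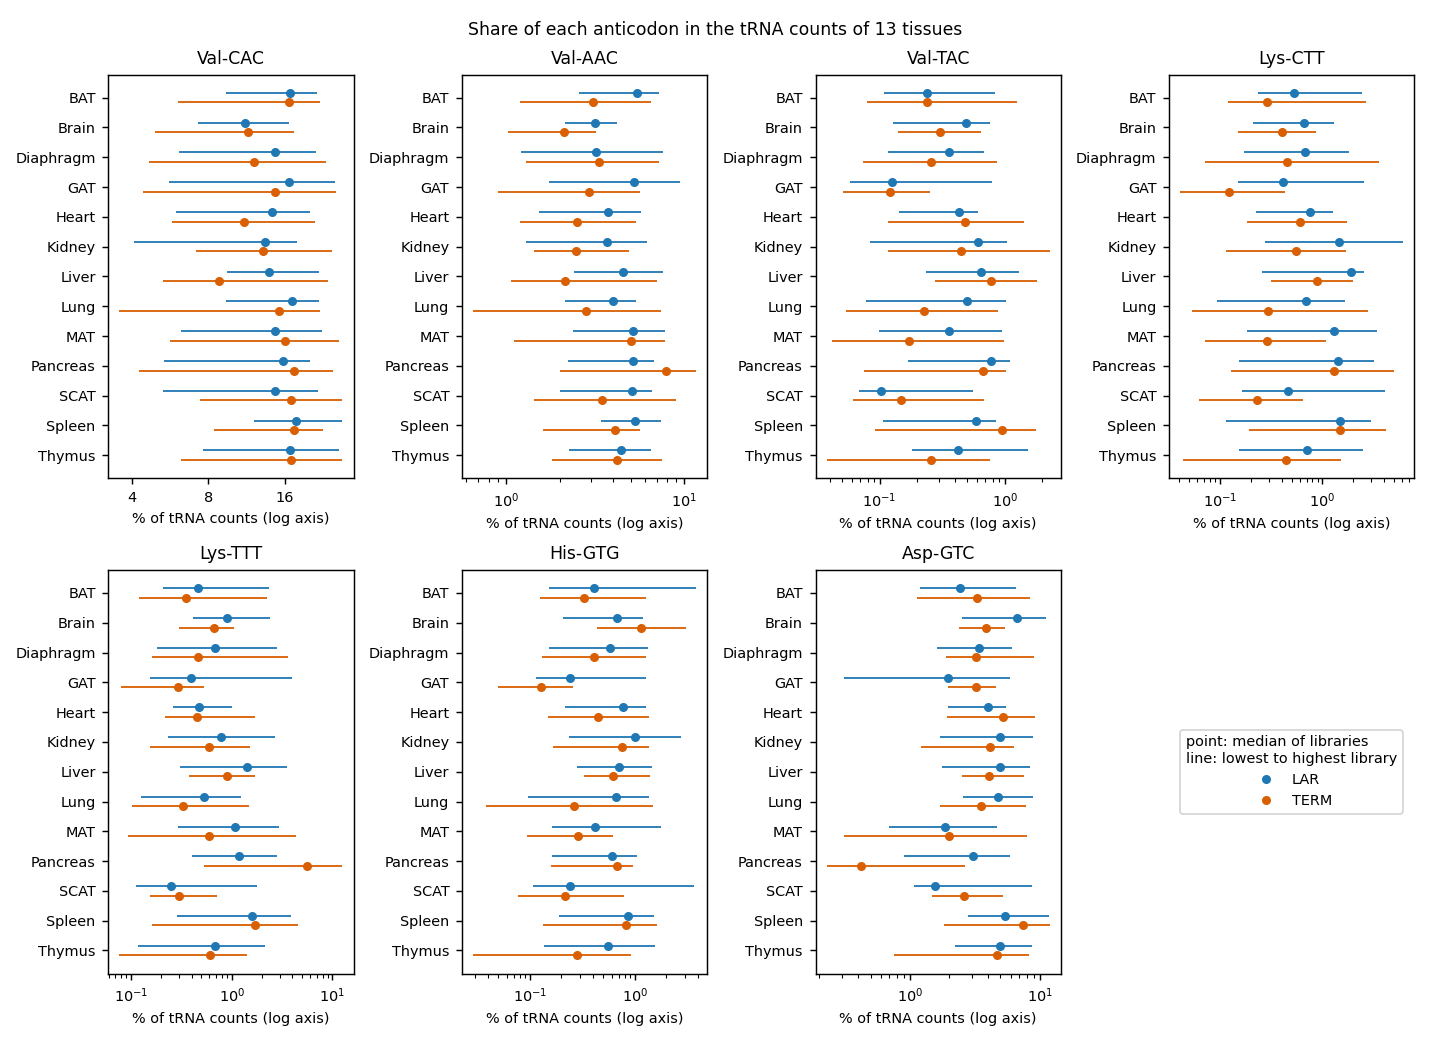
Percent of all tRNA counts (log axis) taken by each of the 7 anticodons in the 13 tissues; points are medians over libraries and lines run from the lowest to the highest library, with LAR and TERM side by side. The medians of Val-AAC and Val-CAC span 1.72 and 1.59 times across tissues in LAR, while Val-TAC, Lys-CTT, Lys-TTT and His-GTG are lowest in GAT and SCAT, and Lys-TTT and Asp-GTC part from the other tissues in opposite directions in pancreas of TERM.

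The spread between libraries was wide against these steps. Of the 12 pairs of neighbours in the order of tissue medians, 0 had ranges that did not overlap, for each anticodon in LAR and in TERM. Even the lowest and the highest tissue overlapped in LAR for every anticodon. In TERM they overlapped for all but His-GTG, whose highest library in GAT (0.260%) was below the lowest in brain (0.432%).

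In TERM the order of tissues was partly the same. Across the 13 tissue medians, Spearman's rho between LAR and TERM was 0.92 for Lys-TTT, 0.81 for Lys-CTT and Val-TAC, 0.79 for His-GTG, 0.77 for Asp-GTC, 0.71 for Val-CAC and 0.53 for Val-AAC. These are descriptions over 13 tissues, with no test. The clearest departures were in pancreas, where the median share of Lys-TTT was 1.17% in LAR and 5.62% in TERM and that of Asp-GTC was 3.08% in LAR and 0.421% in TERM, and in brain, where His-GTG had its highest tissue median in TERM (1.14%) but not in LAR (0.674%).

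On the CPM scale the ranking was another one, since tRNA as a class is a larger part of adipose libraries. The members' median summed level in LAR was lowest in brain (10317 CPM) and highest in GAT (159904 CPM), 15.5 times as high. Val-AAC differed by 27.7 times between the lowest and the highest tissue median and Val-CAC by 23.9 times, but Val-TAC by 4.59 times and His-GTG by 5.34 times. In TERM the lowest median sum was that of spleen (27299 CPM) and the highest that of SCAT (175456 CPM).

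Each tissue was then tested against the mean of the other 12, relative to the other tRNAs. In LAR 54 of 91 tests of members were called, 30 of them higher, where 59.9% of all anticodon tests were called, 28.1% as higher. In TERM 50 of 91 were called, 20 of them higher, against 65.0% of all, 30.8% as higher. In neither extraction were the members called more often than all anticodons, and the difference was not tested. These p-values take libraries as independent, although several tissues come from the same mouse. With tRNA totals alone in place of TMM factors, 25 of the 91 tests in LAR and 30 in TERM were called in the same direction on both scales, and the changes named next are among them.

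Lysine tRNAs were high in liver, pancreas and MAT and low in lung and heart of LAR on both scales. Lys-CTT was higher in liver by 0.42 ± 0.10 (adjusted p = 2e-04; 1.06 with tRNA totals alone) and in pancreas by 0.33 ± 0.11 (adjusted p = 0.00398; 0.76 with totals). In MAT it was higher by 0.65 ± 0.10 (adjusted p = 6.59e-09; 0.40 with totals). Lys-TTT was higher in spleen by 0.42 ± 0.13 (adjusted p = 0.00308; 1.12 with totals) and in MAT by 0.92 ± 0.11 (adjusted p = 2.39e-14; 0.70 with totals). It was lower in heart, at -0.82 ± 0.15 (adjusted p = 2.04e-07; -0.79 with totals), and in lung, at -0.85 ± 0.13 (adjusted p = 5.38e-10; -0.52 with totals). Of the 28 libraries labelled MAT in LAR, 24 had a miRNA profile closest to another tissue, and only 5 of the 28 are in the pools in doubt, so that leaving out these pools (1.03 for Lys-TTT) does not test the label. In the paper the adipose tissues cluster together by miRNA, and how many of the 24 were closest to another adipose tissue is not given here. White fat markers were below the median of the other tissues in 0 of the 28. In TERM, Lys-TTT was again lower in heart (-0.99 ± 0.12) and lung (-0.86 ± 0.12) and higher in liver (0.44 ± 0.11), and by far most in pancreas (2.25 ± 0.14, adjusted p = 1.01e-42; 3.20 with totals). In kidney of LAR, Lys-CTT was higher by 0.36 ± 0.10, but without the pools in doubt by 0.18 (adjusted p = 0.12).

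Val-AAC was low in brain in both extractions, at -1.36 ± 0.29 in LAR (adjusted p = 1.72e-05; -0.55 with totals) and -0.86 ± 0.28 in TERM (adjusted p = 0.00516; -0.76 with totals). It was also low in heart (-0.48 ± 0.20 in LAR, -0.84 ± 0.20 in TERM) and kidney (-0.62 ± 0.18 and -0.63 ± 0.19). It was high in GAT of LAR (1.81 ± 0.14, adjusted p = 2.42e-29; 0.29 with totals) and in MAT (0.45 ± 0.16 in LAR and 1.05 ± 0.16 in TERM). Val-CAC was low in brain of LAR as well (-1.20 ± 0.30) and high in BAT (0.87 ± 0.16 in LAR, 0.52 ± 0.17 in TERM). Val-AAC was high in BAT of LAR (0.99 ± 0.15), but in BAT of TERM it was not called (0.30, adjusted p = 0.111). In liver of TERM both were low, Val-AAC at -0.74 ± 0.19 and Val-CAC at -0.78 ± 0.19, while Val-TAC was higher there by 1.33 ± 0.08 (adjusted p = 1.07e-41; 1.36 with totals). In LAR, Val-TAC was higher in pancreas by 0.56 ± 0.08 (adjusted p = 1.38e-10; 0.92 with totals).

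His-GTG was higher in brain of TERM by 1.84 ± 0.13 (adjusted p = 4.26e-34; 1.66 with totals), in kidney of TERM by 0.44 ± 0.11 and in kidney of LAR by 0.26 ± 0.10, the last of which was not called without the pools in doubt (0.21, adjusted p = 0.068). It was lower in thymus (-0.66 ± 0.12) and lung (-0.74 ± 0.12) of TERM. Asp-GTC was lower in pancreas of TERM by a wide margin (-2.63 ± 0.26, adjusted p = 2.35e-19; -2.38 with totals). It was lower in MAT of LAR (-0.61 ± 0.13; -0.97 with totals) and higher in thymus of LAR (0.26 ± 0.12; 0.47 with totals).

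For the adipose tissues several directions turned with the scale and are therefore given only as values. In SCAT of LAR, Asp-GTC stood at 0.56 relative to the other tRNAs and at -0.95 with tRNA totals alone, and in GAT at 0.65 and -0.86. Lys-CTT in SCAT stood at 0.73 and -0.69, and His-GTG in GAT at 0.42 and -1.04. In spleen of TERM, Asp-GTC stood at -0.46 and 1.11, and His-GTG at -0.52 and 1.01. In brain of LAR, unlike in brain of TERM, His-GTG stood at -0.81 relative to the other tRNAs (adjusted p = 2.03e-05) and at 0.17 with totals.

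The next comparison set TERM beside LAR within each tissue, averaged over the 3 arms. In every arm it joins the preservation of the tissue, the time of collection and different mice, which cannot be told apart. In FL it joins the length of the flight and the return to Earth as well, which HGC and VGC mice did not have. In CPM, 51 of 91 member tests were called, 43 of them higher in TERM and 8 lower, while 41.8% of all anticodon tests were called, 28.1% higher and 13.7% lower. The median change of the members was 0.50, and that of all anticodons 0.13. Relative to the other tRNAs 43 were called, 34 higher and 9 lower, where 53.8% of all were called, 22.6% higher and 31.2% lower, with medians of 0.24 and -0.10. Asp-GTC rose in 11 of 13 tissues in CPM and fell in 0. Valine anticodons rose in 22 of 39 tests and fell in 1, lysine rose in 7 of 26 and fell in 5, and histidine rose in 3 of 13 and fell in 2. Glycine and glutamate together rose in 42 of 78 and fell in 3, alanine and cysteine rose in 15 of 52 and fell in 10, leucine, serine and selenocysteine rose in 29 of 143 and fell in 24, and the remaining isotypes rose in 54 of 287 and fell in 44.

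All 7 anticodons were higher in TERM in CPM in brain (median of all anticodons 0.40) and in liver (0.54), and 6 of 7 in pancreas (1.53). In spleen only Val-TAC was called. There tRNA took a median of 6.58% to 7.14% of the counts in the arms of LAR and of 7.01% to 10.7% in those of TERM. The part of this, and that of the fresh dissection of spleen in TERM, was not tested. Not all calls between TERM and LAR kept their direction on other scales, since the percent scale turns many. Across 4 scales (CPM, CPM with TMM factors over the 7 classes, relative to the other tRNAs, and tRNA totals alone), 31 of the 91 changes kept 1 direction and 13 were called on each, 9 of them higher in TERM.

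**Figure D2:**
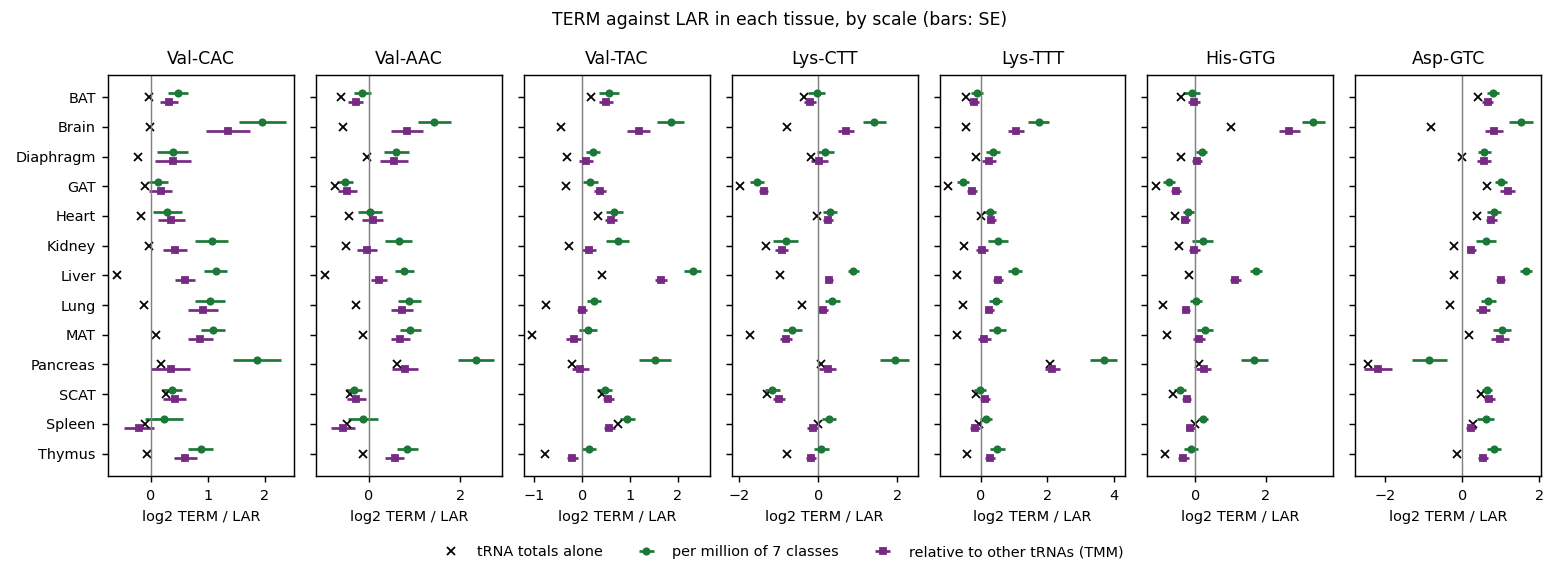
Log2 of TERM over LAR for the 7 anticodons in each of the 13 tissues on 3 scales, with bars of 1 SE; values above 0 are higher in TERM. His-GTG in brain, Lys-TTT in pancreas and Val-TAC in liver are above 0 on each scale and Lys-CTT in GAT and SCAT below it, while many other points change side between scales.

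His-GTG in brain was the first of these. In the 12 brain libraries of LAR it lay at 186 CPM at the lowest, 322 at the median and 841 at the highest, and in the 13 of TERM at 1811, 3267 and 11624. The ranges did not overlap, and this held within each arm. In CPM, FL ran from 222 to 391 in LAR and from 1811 to 4937 in TERM. HGC ran from 189 to 733 and from 1992 to 3881, and VGC from 186 to 841 and from 2388 to 11624. The difference was 3.35 ± 0.33 in CPM (adjusted p = 1.43e-12), 2.67 relative to the other tRNAs and 1.02 with tRNA totals alone. As a share of tRNA counts, LAR ran from 0.207% over 0.674% to 1.20% and TERM from 0.432% over 1.14% to 3.08%, so that the shares overlapped. Brain of LAR holds mice of 3 months alone. In brain tRNA took a median of 3.29% to 5.99% of the counts in the arms of LAR and of 22.7% to 31.7% in those of TERM. The part of this in the change was not tested.

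Pancreas had the opposite movements of Lys-TTT and Asp-GTC. Lys-TTT lay at 515 (lowest), 987 (median) and 12665 (highest) in CPM in the 28 libraries of LAR and at 2546, 27014 and 38684 in the 11 of TERM. The ranges overlapped, and the difference was 3.68 ± 0.40 (adjusted p = 3.53e-11) in CPM and 2.15 relative to the other tRNAs. Its share rose from a median of 1.17% to 5.62%. The share of Asp-GTC ran from 0.912% over 3.08% to 5.93% in LAR and from 0.230% over 0.421% to 2.69% in TERM. In CPM, Asp-GTC was not called (-0.86, adjusted p = 0.0819), although it was called relative to the other tRNAs. Val-AAC rose by 2.33 ± 0.39 in CPM and 0.79 relative to the other tRNAs. Pancreas of TERM holds mice of 3 months alone. In pancreas tRNA took a median of 7.03% to 9.66% of the counts in the arms of LAR and of 42.5% to 51.2% in those of TERM, and the part of this in the changes was not tested.

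In liver, Val-TAC lay at 347, 555 and 1243 CPM (lowest, median, highest) in LAR and at 1259, 2777 and 8288 in TERM, with no overlap. It rose by 2.32 ± 0.18 in CPM (adjusted p = 4.61e-18), 1.65 relative to the other tRNAs and 0.42 with totals. In liver tRNA took a median of 8.47% to 9.84% of the counts in the arms of LAR and of 33.2% to 38.7% in those of TERM. The part of this in the change was not tested. In spleen Val-TAC rose by 0.94 ± 0.16 (adjusted p = 1.98e-05), 0.57 and 0.74. Asp-GTC rose in GAT by 1.01 ± 0.15, in BAT by 0.81 ± 0.16, in heart by 0.82 ± 0.19 and in SCAT by 0.65 ± 0.13 in CPM, and was called on the other scales as well.

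Lys-CTT was called lower in TERM in 4 tissues in CPM (GAT, SCAT, MAT and kidney) and higher in 3 (brain, liver and pancreas). In GAT it lay at 1190, 2546 and 8263 CPM (lowest, median, highest) in the 30 libraries of LAR and at 358, 958 and 3485 in the 30 of TERM, which overlapped. It fell by 1.54 ± 0.17 in CPM (adjusted p = 1.24e-11), and by 1.38 relative to the other tRNAs. It fell in SCAT by 1.16 ± 0.19 in CPM (adjusted p = 1.59e-06). Its median share was higher in TERM than in LAR in 0 of 13 tissues. The fall in kidney (-0.83 ± 0.32 in CPM) rested on the pools with profiles of other tissues, since without them it was -0.01 (adjusted p = 0.956). His-GTG fell in GAT by 0.75 ± 0.17 in CPM.

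The question of the study was what spaceflight changes, and the closest control for it is HGC. In LAR, FL against HGC gave 7 calls among 91 member tests in CPM, all 7 lower in flight, where 4.47% of all anticodon tests were called, 2.16% as lower. More members were called in CPM with TMM factors over the 7 classes and without the pools in doubt, as counted below. Relative to the other tRNAs 6 were called, all lower, where 6.63% of all were called, 2.16% as lower, but 0 of these 6 were still called with tRNA totals alone. The median change of members was -0.32 in CPM against -0.08 over all anticodons, and -0.08 against 0.01 relative to the other tRNAs. The calls were in BAT, GAT and kidney. By the Wilcoxon test, 5 of the 15 calls of FL against HGC, over both extractions and scales, were kept, 8 were lost and 2 turned. The 2 that turned were those of His-GTG relative to the other tRNAs in BAT and GAT. By isotype the CPM calls were 3 for valine, 3 for lysine, 1 for histidine and 0 for aspartate. Of glycine and glutamate 4 of 78 fell, of alanine and cysteine 1 of 52 rose and 1 fell, of leucine, serine and selenocysteine 3 of 142 rose, and of the remaining isotypes 11 of 286 rose and 2 fell.

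Most calls came from BAT, with 10 libraries in each arm. Val-AAC lay at 2773 (lowest), 10494 (median) and 21092 (highest) in CPM in FL, at 12840, 26286 and 38663 in HGC and at 13216, 19953 and 36364 in VGC. The flight libraries were low, but the highest of them stood above the lowest of both control arms. The change against HGC was -1.21 ± 0.27 (adjusted p = 0.00411), and -0.98 (adjusted p = 0.0200) without the pools in doubt, which hold 4 of the FL, 1 of the HGC and 4 of the VGC libraries of this tissue. Leaving out each FL or HGC library in turn gave -1.34 to -1.09 and kept the call.

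Val-CAC lay at 10982, 37213 and 66631 CPM in FL, at 57779, 76383 and 113726 in HGC and at 39836, 59475 and 120038 in VGC. It changed by -1.03 ± 0.24 (adjusted p = 0.0043; -0.84 and adjusted p = 0.0246 without the pools), and by -1.14 to -0.92 with each library left out. As a share of tRNA counts the 3 arms were close, with medians of 16.6%, 17.7% and 16.6% for Val-CAC and of 4.40%, 6.16% and 5.06% for Val-AAC. Both were still called relative to the other tRNAs, Val-AAC at -0.94 ± 0.25 (adjusted p = 0.00371; -0.82 without the pools, adjusted p = 0.0134) and Val-CAC at -0.78 ± 0.23 (adjusted p = 0.0106; -0.70 without the pools, adjusted p = 0.0253), but with tRNA totals alone they stood at -0.34 and -0.14.

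Lys-CTT lay at 773, 1342 and 1986 CPM in FL, at 857, 2370 and 8610 in HGC and at 1061, 2065 and 3610 in VGC. It changed by -1.12 ± 0.31 (adjusted p = 0.0109; -1.29 and adjusted p = 0.0264 without the pools) and by -1.22 to -0.76 with each library left out. Relative to the other tRNAs it stood at -0.56 ± 0.21 (adjusted p = 0.0355; -0.92 and adjusted p = 0.0134 without the pools), a call lost on leaving out any 1 of 11 of the 20 libraries, and at 0.24 with tRNA totals alone.

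The CPM calls of Lys-TTT and His-GTG in BAT rested on 1 library. Lys-TTT lay at 893, 1191 and 2171 CPM in FL, at 903, 1969 and 10180 in HGC and at 802, 2298 and 3156 in VGC. It changed by -1.02 ± 0.32 (adjusted p = 0.0162; -1.27 and adjusted p = 0.0363 without the pools in doubt), but by -0.47 (adjusted p = 0.116) without HGC mouse 16. His-GTG lay at 730, 1149 and 2144 in FL, at 874, 1599 and 25816 in HGC and at 747, 1347 and 3174 in VGC. Its change of -1.75 ± 0.48 (adjusted p = 0.0109; -1.74 and adjusted p = 0.0541 without the pools) became -0.46 (adjusted p = 0.171) without that mouse. As a share of tRNA counts its median went the other way, at 0.480% in FL and 0.378% in HGC. Its -0.86 ± 0.30 relative to the other tRNAs (adjusted p = 0.0228; -0.95 and adjusted p = 0.0475 without the pools) became -0.32 (adjusted p = 0.182) without that mouse, and the call was lost as well on leaving out FL mouse 11, FL mouse 13 or HGC mouse 2.

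Asp-GTC and Val-TAC were not called in BAT. Asp-GTC lay at 4287, 7807 and 11334 CPM in FL, 5669, 9367 and 13904 in HGC and 5880, 9168 and 17590 in VGC. As a share of tRNA counts aspartate was high in flight, with 2.08%, 3.09% and 6.57% of tRNA counts in FL against 1.31%, 2.10% and 2.67% in HGC and 1.20%, 2.50% and 2.73% in VGC. With tRNA totals alone this was a rise of 0.78 over HGC (adjusted p = 0.00107) and of 0.63 over VGC (adjusted p = 0.0152), but relative to the other tRNAs it was 0.07 (adjusted p = 0.820). Val-TAC lay at 546, 779 and 1175 CPM in FL, 531, 733 and 5462 in HGC and 626, 816 and 1742 in VGC.

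**Figure D3:**
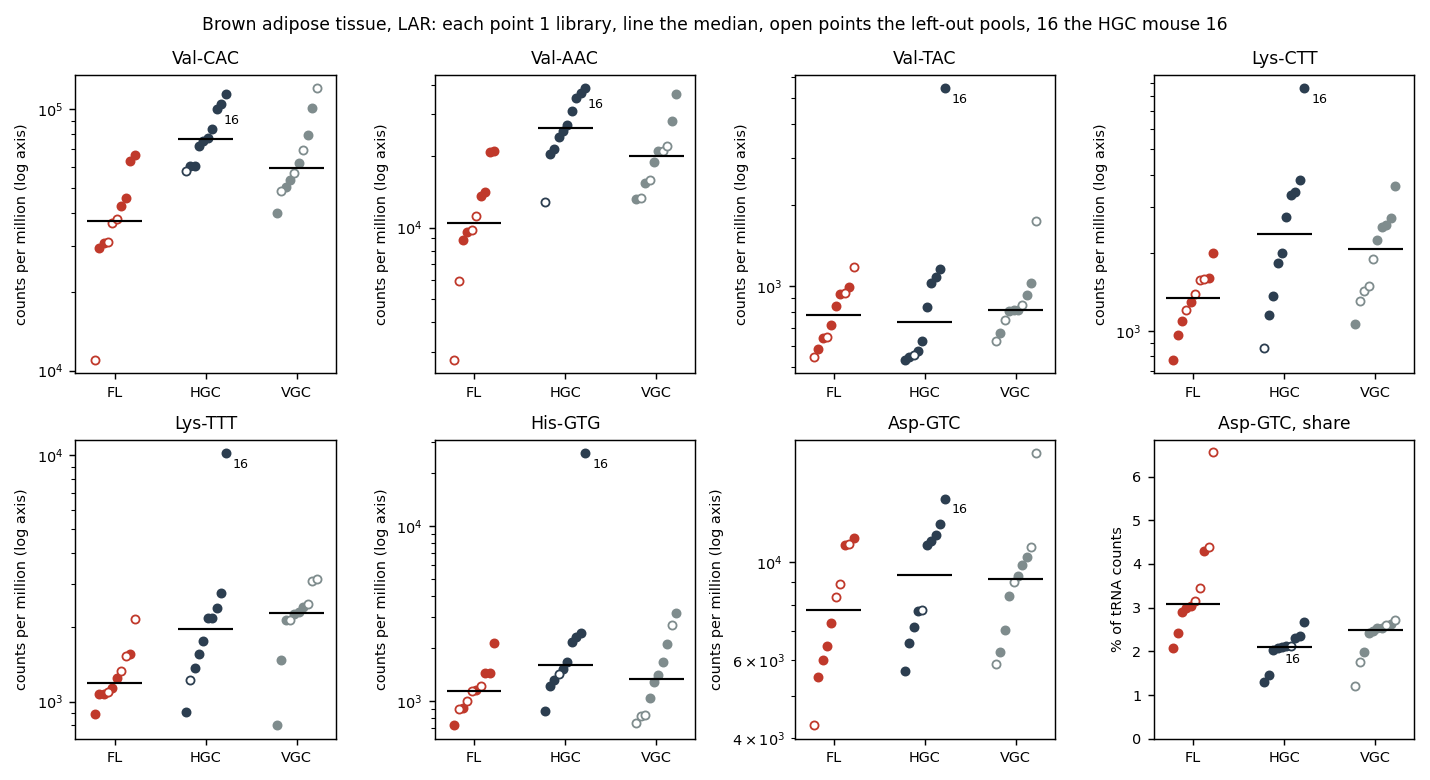
CPM (log axes) for the 7 anticodons in the 10 BAT libraries of each LAR arm, with a further panel for Asp-GTC as percent of tRNA counts; lines are medians, open points are libraries from pools whose profiles fit other tissues, and 16 marks HGC mouse 16. Flight libraries are low for Val-AAC and Val-CAC (medians 10494 and 37213 against 26286 and 76383 in HGC), and HGC mouse 16 is far above the others for His-GTG and Lys-TTT.

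Whole-class values moved with these calls. In BAT, tRNA took 6.52% to 36.6% of the counts in FL (median 24.3%), 31.4% to 67.2% in HGC (44.9%) and 26.0% to 64.5% in VGC (40.3%). The median over all anticodons was -0.18 in CPM, with 12 of 50 called lower and 2 higher. The 3 blood miRNAs took a median of 2.44% of miRNA counts in FL (1.94% to 19.0%), 1.77% in HGC (1.05% to 6.59%) and 2.60% in VGC (1.75% to 4.97%). The part of these in the members' change was not tested.

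Among single rows, tRNA-Val-AAC-1-1 changed by -0.99 relative to the other tRNAs in BAT (adjusted p = 0.0022 over all rows), tRNA-Val-CAC-2-1 by -1.03 in CPM (adjusted p = 0.00553) and tRNA-Lys-CTT-2-1 by -1.25 (adjusted p = 0.00553). Row tRNA-Asp-GTC-3-1 went the other way, at 0.64 relative to the other tRNAs (adjusted p = 0.0150), and its median share of tRNA counts was 0.0146% in FL and 0.00588% in HGC. The lead row of Val-TAC was called in 0 tissues, with a smallest adjusted p of 0.132.

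In GAT the call was on Lys-TTT. Its share of tRNA counts was 0.155% (lowest), 0.298% (median) and 0.734% (highest) in the 10 FL libraries, 0.279%, 0.421% and 1.42% in the 10 of HGC and 0.176%, 0.431% and 3.93% in the 10 of VGC. Flight was low at the median, and the arms overlapped. The change from HGC relative to the other tRNAs was -1.35 ± 0.28 (adjusted p = 0.00192; -1.23 and adjusted p = 0.00182 without the pools in doubt), and -1.52 to -1.22 with each library left out. With tRNA totals alone it was -0.58 (adjusted p = 0.327). In CPM it was -1.13 ± 0.41 (adjusted p = 0.0424; -1.31 and adjusted p = 0.0203 without the pools), a call lost on leaving out any 1 of 15 of the 20 libraries, with levels of 582, 1711 and 3729 in FL, 2044, 3288 and 10991 in HGC and 1342, 2337 and 16937 in VGC. In GAT tRNA took a median of 59.7% of counts in FL, 77.6% in HGC and 70.5% in VGC. His-GTG was called at -0.86 ± 0.28 relative to the other tRNAs (adjusted p = 0.0241; -0.78 and adjusted p = 0.0149 without the pools), but its share medians were 0.242% in FL and 0.218% in HGC, and without HGC mouse 16 it stood at -0.55 (adjusted p = 0.0561).

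In kidney, Val-AAC lay at 1877, 2548 and 5783 CPM in FL, at 2135, 4624 and 48610 in HGC and at 1651, 2379 and 7394 in VGC. The change from HGC was -2.02 ± 0.53 (adjusted p = 0.0278; -1.60 and adjusted p = 0.00976 without the pools in doubt). It was lost on leaving out any 1 of 10 of the 20 libraries, among them HGC mouse 1, whose miRNA profile was closest to GAT and without which the change was -1.44 (adjusted p = 0.105). HGC mouse 16 was another of these libraries and is not in the pools in doubt. It held 31719 CPM, where the median of the other HGC libraries was 4480. Val-AAC in kidney was not called relative to the other tRNAs. Kidney tRNA took 6.38% to 84.0% of counts in HGC and 5.14% to 17.5% in FL.

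In TERM, FL against HGC gave 1 call among 91 on each scale, where 1.69% of all tests were called in CPM, all as higher, and 1.38% relative to the other tRNAs, 0.614% as higher. Val-AAC in spleen lay at 2515, 6053 and 35950 CPM in the 9 FL libraries, at 1357, 2195 and 4620 in the 9 of HGC and at 1493, 3356 and 17268 in the 8 of VGC. Flight was high at the median, and the arms overlapped. The change was 1.86 ± 0.49 (adjusted p = 0.0176) in CPM and 1.27 ± 0.36 (adjusted p = 0.0238) relative to the other tRNAs. Without FL mouse 12, whose miRNA profile was closest to SCAT, it was 1.23 (adjusted p = 0.143) in CPM and 0.87 (adjusted p = 0.0531) relative to the other tRNAs, and without the pools in doubt 0.95 (adjusted p = 0.0721) and 0.63 (adjusted p = 0.191). Blood miRNAs took 0.722% to 20.1% of miRNA counts in FL (median 14.2%) and 2.91% to 24.1% in HGC (9.93%), and their part was not tested.

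**Figure D4:**
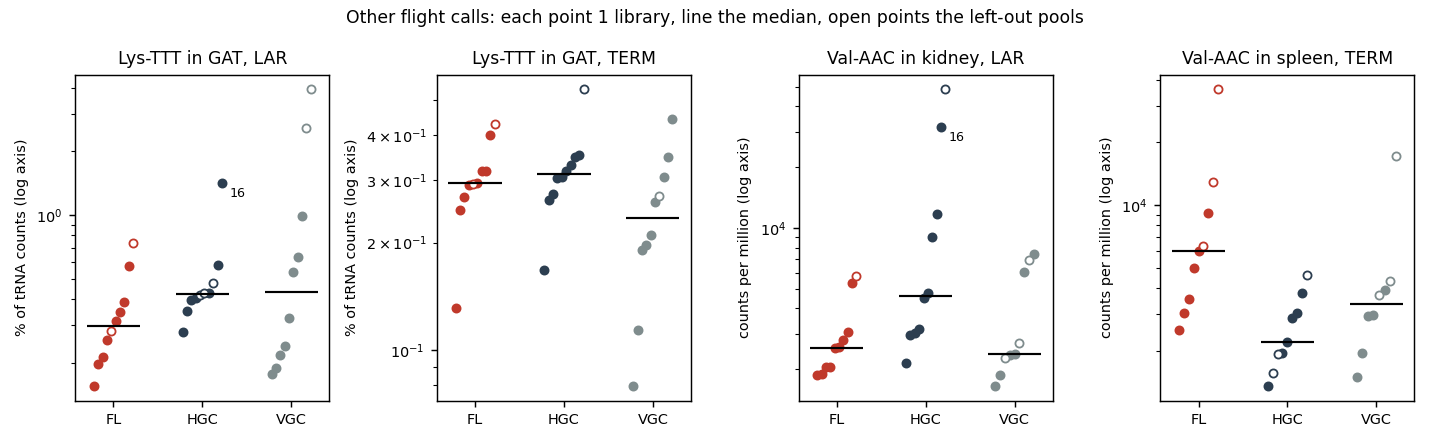
Libraries of the 3 arms for Lys-TTT as percent of tRNA counts in GAT of LAR and of TERM, and for Val-AAC in CPM in kidney of LAR and in spleen of TERM (log axes, lines at the medians, open points from pools whose profiles fit other tissues). Flight medians are low for Lys-TTT in GAT of LAR (0.298% against 0.421% in HGC) but close to HGC in TERM (0.293% against 0.311%), and single libraries stand far above their arm in kidney and spleen.

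The difference of the flight contrast between TERM and LAR was tested as an interaction, and 4 of 91 member tests were called, where 1.54% of all were. In GAT the contrast of FL with HGC differed by 1.24 ± 0.38 for Lys-TTT (adjusted p = 0.0287; 1.06 and adjusted p = 0.0573 without the pools in doubt) and by 1.15 ± 0.33 for His-GTG (adjusted p = 0.0245; 1.14 and adjusted p = 0.0438 without the pools). The LAR contrast of His-GTG in GAT was not called without HGC mouse 16 (-0.55, adjusted p = 0.0561), which is not in the pools in doubt. Over all tissues, leaving out each replicate number in turn gave 0 to 4 interaction calls. In TERM the GAT share of Lys-TTT was 0.131%, 0.293% and 0.429% in FL and 0.167%, 0.311% and 0.537% in HGC. In pancreas the contrast differed by 2.30 ± 0.66 for Asp-GTC (adjusted p = 0.0133; 3.81 and adjusted p = 0.000985 without the pools) and by -1.56 ± 0.53 for Lys-TTT (adjusted p = 0.0448; -0.92 and adjusted p = 0.423 without the pools). In pancreas of TERM, Asp-GTC took 0.230%, 1.07% and 2.69% in the 4 FL libraries and 0.291%, 0.421% and 0.750% in the 5 of HGC, and Lys-TTT took 0.532%, 2.49% and 7.02% in FL and 5.19%, 6.51% and 12.6% in HGC. With tRNA totals alone none of these 4 was called, and with identical rows merged 1 was.

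The remaining comparisons of arms share libraries with the one above. Against VGC, FL gave 0 calls of members in LAR on both scales by edgeR, with 17 in CPM and 12 relative to the other tRNAs at an unadjusted p under 0.05. DESeq2 called 2 and 5, and over all anticodons edgeR called 0.616% and 1.39%. The smallest were Val-AAC and Val-CAC in BAT, at -0.80 and -0.79 in CPM (adjusted p = 0.0890 for both), and Lys-TTT in GAT, at -0.99 relative to the other tRNAs (adjusted p = 0.0683). In TERM there were 0 calls on both scales, with 4 and 7 unadjusted, 0 and 2 by DESeq2, and 1.54% and 0.922% of all anticodons. HGC against VGC, which compares housing on the ground, gave 0 calls by edgeR in LAR (9 and 11 unadjusted, 1 and 4 by DESeq2, 0.616% of all on both scales) and 0 in TERM (5 and 4 unadjusted, 0 and 0 by DESeq2, 0.0% of all on both scales). The Wilcoxon test called 0 in each of these comparisons with VGC. In LAR both comparisons did give member calls in CPM with TMM factors over the 7 classes, as counted below.

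The library of HGC mouse 16 that carried the His-GTG call in BAT was not alone. Of the 11 LAR tissues in which this mouse was sequenced, His-GTG in CPM was the highest of the HGC libraries in 11 of 11. It stood at 1.78 to 17.0 times the median of the other HGC libraries of the tissue, with a median of 5.71 times. In BAT it was 25816 CPM, where the other 9 ran from 874 to 2456, and 3.84% of tRNA counts, where their median was 0.363%. Its 11 libraries came from 8 pools, 2 of them in the pools in doubt. No other mouse of the study was the highest of its arm for His-GTG in so many tissues, and the next, a TERM flight mouse, was so in 5 of 11.

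Other members followed in this mouse. Val-TAC, Lys-CTT and Lys-TTT were the highest of HGC in 10 of 11 tissues, Val-AAC and Asp-GTC in 7 and Val-CAC in 3. Over all 51 anticodons the median was 7 of 11, and 10 anticodons reached 10 or more, of which 4 are members. On the share scale, His-GTG of this mouse was highest in 5 of 11 tissues, at a median of 1.73 times the others. The tRNA class itself took more than the median of the other HGC libraries in 10 of the 11 tissues, all but GAT, with 73.3% of counts in diaphragm (median of the others 15.9%), 67.9% in kidney (11.3%), 65.4% in pancreas (6.90%) and 67.2% in BAT (43.4%), and the part of this in the levels was not tested. This mouse was noticed after its values were seen.

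**Figure D5:**
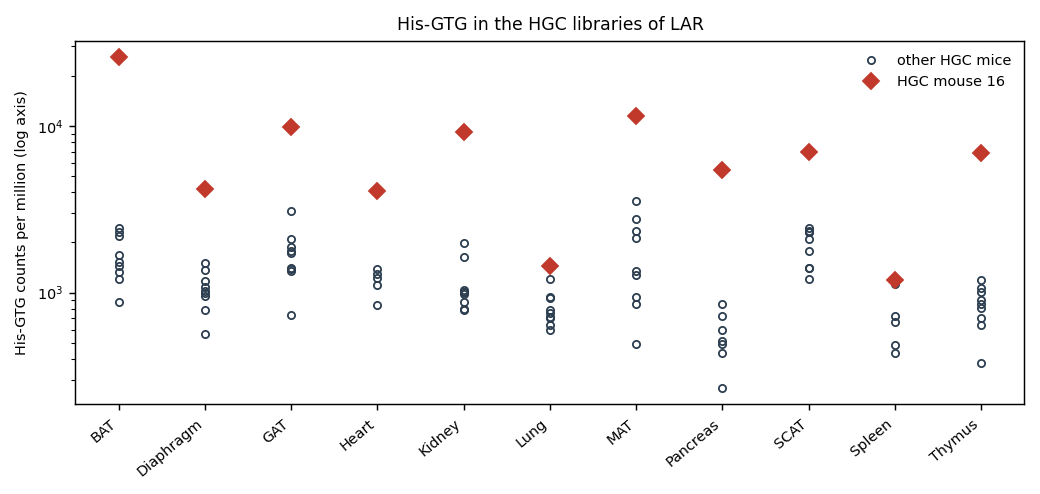
His-GTG in CPM (log axis) in the HGC libraries of LAR for the 11 tissues in which mouse 16 was sequenced; diamonds are mouse 16 and circles the other HGC mice. The diamond is the highest point in each of the 11 tissues, most widely in BAT (25816 against at most 2456).

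Age was compared in the 12 tissues of each extraction with both ages. In LAR, 4 of 84 member tests in CPM were higher at 8 than at 3 months, where 7.18% of all were called, 6.84% as higher, and all 4 were in kidney. Lys-CTT in kidney ran from 516 over 966 to 4154 CPM in the 15 libraries of 3 months and from 669 over 1139 to 33349 in the 14 of 8 months. The medians were close. The top libraries at 8 months were VGC mouse 4, with 33349 CPM of Lys-CTT and a miRNA profile closest to liver, and HGC mouse 16, with 15307 CPM. The changes were 1.66 ± 0.48 for Lys-CTT (adjusted p = 0.00963), 1.39 ± 0.44 for His-GTG (adjusted p = 0.0120), 1.33 ± 0.42 for Lys-TTT (adjusted p = 0.0120) and 0.81 ± 0.34 for Val-TAC (adjusted p = 0.0442). Of all 50 kidney anticodons 29 were called higher, with a median of 0.86. All 4 calls were lost without VGC mouse 4, and that of Val-TAC on leaving out any 1 of 14 of the 29 libraries. Without VGC mouse 4 the 4 changes were 0.68, 0.52, 1.22 and 0.45, with adjusted p of 0.144, 0.196, 0.101 and 0.226. Without HGC mouse 16 they were 1.16, 0.90, 0.60 and 0.45, and Lys-CTT alone was called (adjusted p = 0.0462). Without both they were 0.18, 0.02, 0.49 and 0.09, with adjusted p of 0.368 to 0.941. Without the pools in doubt, to which VGC mouse 4 belongs, the 4 stood at 0.35, 0.48, 0.92 and 0.29, and 0 were called. By edgeR 0 members were called relative to the other tRNAs (4 unadjusted, 0 by DESeq2), where 1.17% of all were called.

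In TERM, 2 member tests in CPM were lower at 8 months, where 3.99% of all were called, 2.83% as lower, and both were in MAT. Of the 29 MAT libraries of TERM, 22 had a miRNA profile closest to another tissue, and only 8 of the 29 are in the pools in doubt, and the part of this in the changes was not tested. White fat markers were below the median of the other tissues in 3 of the 29. Lys-CTT ran from 1112 over 2874 to 5559 CPM in the 15 libraries of 3 months and from 600 over 1354 to 2709 in the 14 of 8 months. The older mice were lower at each of these points, with overlap. It fell by 1.00 ± 0.27 (adjusted p = 0.00499), kept in each of 29 fits with 1 library left out (-1.04 and adjusted p = 0.00585 without the pools in doubt), and by 0.76 ± 0.22 relative to the other tRNAs (adjusted p = 0.0293), where 1.49% of all were called, 0.663% as lower. The latter was -0.61 (adjusted p = 0.0542) without the pools in doubt and was lost on leaving out any 1 of 10 of the 29 libraries. Val-TAC ran from 498 over 1447 to 2600 at 3 months and from 363 over 942 to 1455 at 8 months, a change of -0.74 ± 0.25 (adjusted p = 0.0208), and -0.61 (adjusted p = 0.0521) without VGC mouse 5, but -0.81 (adjusted p = 0.0107) without the pools. Leaving out the pools kept 8 of the 15 libraries of 3 months and 13 of the 14 of 8 months. Of 50 MAT anticodons 17 were lower, with a median of -0.43. The flight contrast itself differed between the ages in 0 member tests by edgeR in LAR (4 unadjusted, 5 by DESeq2), where 0.0% of all were called.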

How the data were processed

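Small RNA libraries (MGIEasy kit, 21 PCR cycles, BGISEQ single-end reads of 50 bases) had been mapped to GRCm39 and miRBase with miRMaster by the authors, who deposited counts per feature and library without normalization. The deposited tables hold whole read counts for tRNA, rRNA, snRNA, snoRNA, piRNA and lncRNA, and for miRNA the authors deposited estimated counts, which need not be whole. The values count reads, and whether molecular identifiers were used to remove PCR copies is not given in the sources used here. How reads with several places were counted is not given in the sources used here, and identical rows show that copies share them.

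Rows were summed by anticodon. Anticodons were kept by edgeR's filter at a minimum count of 10 and fitted with edgeR 4.0.16 (limma 3.58.1, R 4.3.3), 1 quasi-likelihood fit per tissue with the arms, arms and ages, or arms and extractions as groups, or over all tissues with arm as covariate. Library sizes were the totals of the 7 classes, or tRNA totals with TMM factors. Alternatives were other scalings, no filter, DESeq2 1.42.0, the Wilcoxon rank-sum test, single rows, age as covariate, a replicate block, each replicate number left out, and libraries left out. The additions, merging identical rows and leaving out each library in turn for the flight and age calls, were chosen after the data were seen. The steps were tested on simulated data. Further packages were data.table (1.17.8), pandas 2.3.3 and numpy 2.4.6 in Python 3.11.15, and plots drawn with matplotlib 3.10.9.

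Each library's profile over 730 miRNAs was compared with the tissue medians, and no library was relabelled. Mouse numbers recur between arms for different animals. The members were taken by isotype name, and this choice, the lists and the tests were made with earlier results of these data known. Named were all 7 anticodons, per anticodon the row with the highest mean share and that with the smallest adjusted p when FL and HGC were compared in LAR, the called members of each comparison, up to the 10 with the smallest adjusted p, and per isotype the 2 most alike others over the tissues of LAR. Asp-GTC in BAT, Val-TAC in BAT, HGC mouse 16 and single libraries were named after their values were seen.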

Additional observations from a re-analysis of the deposited data

Results flagged for a closer look

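Single libraries stood apart from their group by Dixon's test in 14 of 45 sets of 4 to 10 libraries examined. The sets share libraries across anticodons and scales, so this count cannot be set against chance. HGC mouse 16 of LAR accounted for several of the 14. In BAT it held 25816 CPM of His-GTG (nearest other 2456), 8610 of Lys-CTT (nearest 3823) and 10180 of Lys-TTT (nearest 2752), and 3.84% of its tRNA counts were His-GTG (nearest 0.782%). In GAT it held 10991 CPM of Lys-TTT (nearest 4293), 1.42% of tRNA counts as Lys-TTT (nearest 0.581%) and 1.28% as His-GTG (nearest 0.364%). Other libraries of BAT were FL mouse 3 with 2144 CPM of His-GTG (nearest 1455), FL mouse 11 with 2171 of Lys-TTT (nearest 1557) and FL mouse 2 with 2.43% of tRNA counts as Lys-CTT (nearest 0.999%). In GAT, VGC mouse 1 held 16937 CPM of Lys-TTT (nearest 6575) and VGC mouse 4 had 0.870% of tRNA counts as His-GTG (nearest 0.502%). In spleen of TERM, Val-AAC stood at 35950 CPM in FL mouse 12 (nearest 12973) and at 17268 in VGC mouse 13 (nearest 4314).

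The contrast of FL with HGC differed between TERM and LAR by edgeR's interaction test in 4 cases. The difference, TERM minus LAR, was 2.30 ± 0.66 (SE) on the log2 scale for Asp-GTC in pancreas, -1.56 ± 0.53 for Lys-TTT in pancreas, 1.15 ± 0.33 for His-GTG in GAT and 1.24 ± 0.38 for Lys-TTT in GAT, with adjusted p of 0.0133, 0.0448, 0.0245 and 0.0287. With tRNA totals alone the value was 1.68 for Asp-GTC in pancreas (adjusted p = 0.0878), 0.55 for His-GTG and 0.48 for Lys-TTT in GAT, and none of the 4 was called. Without the pools in doubt Lys-TTT lost its call in pancreas (-0.92, adjusted p = 0.423) and in GAT (1.06, adjusted p = 0.0573). For His-GTG in GAT, the contrast of LAR was not called without HGC mouse 16 (-0.55, adjusted p = 0.0561).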

How the results depend on the processing

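Counts of called member tests are given in CPM (counts scaled to a common library total) and then relative to the other tRNAs unless 1 scale is named. FL vs. HGC of LAR, 7 and 6 calls, became 20 in CPM with TMM factors over all 7 classes and, relative to the others, 1 with tRNA totals alone, a rise of Asp-GTC in BAT, while of the 6 calls 5 kept their direction and 0 their call. It became 15 relative to the other tRNAs with DESeq2, 12 in CPM without the pools in doubt, and 10 relative to the others with identical rows merged. FL vs. HGC of TERM, 1 and 1, became 2 and 3 with DESeq2, 0 relative to the others with totals, and 0 and 0 without the pools. FL vs. VGC of LAR, 0 and 0, became 10 with TMM over 7 classes, 1 with totals, 1 relative to the others with no filter, 2 and 5 with DESeq2, and 5 relative to the others when merged, and in TERM 2 relative to the others with DESeq2. HGC vs. VGC of LAR, 0 and 0, became 4 with TMM over 7 classes, 2 with totals, 3 relative to the others with no filter, 1 and 4 with DESeq2, 2 in CPM without the pools, and 2 relative to the others when merged. Age in LAR, 4 in CPM, became 1 with TMM over 7 classes and 0 without the pools, and age in TERM, 2 and 1, became 6 and 2 by scaling, 4 and 2 with DESeq2, 4 and 2 without the pools, and 2 relative to the others when merged. The flight contrast by age, 0, became 5 with DESeq2 and 1 when merged, and that by extraction, 4, became 0 with totals, while of these 4 calls 2 were still made without the pools, 3 with DESeq2 and 1 when merged. On single rows, of which there are more to test, the counts were 55 and 47 for FL vs. HGC of LAR, 8 and 24 in TERM, 1 and 1 for FL vs. VGC of LAR, 1 relative to the others in TERM, 1 and 1 for HGC vs. VGC of LAR, 33 in CPM for age in LAR, 20 and 2 for age in TERM, 462 and 479 for TERM vs. LAR, 5 by age, 14 by extraction, and 559 and 634 for tissues in LAR and TERM. Leaving out each replicate number in turn gave 3 to 9 and 3 to 7 for FL vs. HGC of LAR, 0 to 2 and 0 to 2 in TERM, 0 to 5 and 0 to 4 for FL vs. VGC of LAR, 0 to 2 and 0 to 2 in TERM, 0 to 3 and 0 to 3 for HGC vs. VGC of LAR, 0 to 0 in TERM, 1 to 6 and 0 to 1 for age in LAR, 1 to 5 and 0 to 2 in TERM, 0 to 0 by age, 0 to 4 by extraction, 46 to 52 and 41 to 50 for TERM vs. LAR, 53 to 59 for tissues in LAR and 47 to 58 in TERM.

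On totals 23 of the 43 relative calls between TERM and LAR kept their direction, 34 of the 54 by tissue in LAR and 41 of the 50 in TERM. Among the values named by rule, 8 turned. Relative to the other tRNAs, His-GTG of FL vs. HGC gave 0.35 in BAT and 0.15 in GAT by the Wilcoxon test. With tRNA totals alone, Lys-CTT of FL vs. HGC in BAT gave 0.24, TERM vs. LAR in liver gave -0.20 for Asp-GTC and -0.17 for His-GTG, the tissue contrast of SCAT in LAR gave -0.11 for Val-CAC and -0.69 for Lys-CTT, and that of GAT in TERM gave -0.037 for Asp-GTC. The cause was not tested. The 15 named values tested by the Wilcoxon test are the calls of FL vs. HGC in LAR and TERM. Of these, 5 kept their call, 8 lost it and 2 turned. On tRNA totals alone 21 of 42 kept it, 15 lost it and 6 turned, and with the replicate block 6 of 15 kept it. Of 66, 56 kept their call without the pools in doubt and 63 with identical rows merged.

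Mice of different arms share only a number. The profiles of same-numbered mice correlated at a median of -0.04 to 0.12 over the pairs of arms, and at most 3 of 14 mice correlated best with their own number, so the numbers do not pair the mice. With the number as a replicate block, FL vs. HGC gave 3 and 3 calls in LAR and 0 and 0 in TERM, and FL vs. VGC of LAR gave 1 in CPM. Depth was no limit here, since each of the 7 anticodons had at least 5364 counts in every library.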

Other observations

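Of the 22 other isotypes, those whose median share over the 13 tissues of LAR was most like that of histidine were isoleucine (Pearson's r of log2 shares 0.96; 0.81 in TERM) and threonine (0.95; 0.72). Aspartate was most like proline (0.93; 0.74 in TERM) and tyrosine (0.93; 0.22), and lysine most like glycine (0.89; 0.37) and selenocysteine (0.85; 0.93). Valine had no close companion, with glutamate at 0.14 (-0.36 in TERM) and lysine at -0.10. Glutamate ranked last of the 22 for lysine (-0.85), histidine (-0.72) and aspartate (-0.68) in LAR. These are descriptions over 13 tissue medians that share libraries, depth and the same total, in which the rise of 1 abundant isotype lowers the share of the others.

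Within a tissue, Val-AAC and Val-CAC in CPM moved together over libraries, with a median r of 0.97 (0.917 to 0.991) over the 26 sets of tissue and extraction, which also share the class total. The ratio of row tRNA-Val-AAC-1-1 to row tRNA-Val-CAC-2-1 nevertheless differed between tissues. Its median was 0.993 in pancreas of TERM (0.583 to 0.998), 0.707 in pancreas of LAR, 0.601 in brain of LAR, 0.405 in brain of TERM and 0.494 in spleen of TERM. How far reads that match both rows set this ratio was not tested.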
